A study of Mus musculus with 12 samples.

Results

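The genes described here are 9 astrocyte genes for the handling of glutamate, potassium and water, namely Slc1a3, Slc1a2, Glul, Slc38a3, Kcnj10, Slc4a4, Aqp4, Gja1 and Gjb6. They were named for what they do, with earlier results of these data known, out of 55573 genes in the count table. All 9 had at least 1 count, and 8 of them, Gjb6 being the exception, were among the 16761 genes that passed a filter on low counts and were tested.

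Astrocytes surround synapses and clear what neurons release. Glutamate enters them through sodium-driven transporters, of which GLAST (Slc1a3) and GLT-1 (Slc1a2) are the main ones in the forebrain, and glutamine synthetase (Glul) turns it into glutamine, which leaves through the amino acid carrier SNAT3 (Slc38a3) and returns to neurons. Potassium left by active neurons enters through the inward rectifier channel Kir4.1 (Kcnj10), the bicarbonate cotransporter NBCe1 (Slc4a4) moves bicarbonate with sodium and so sets pH, and water moves through aquaporin-4 (Aqp4). The connexins Cx43 (Gja1) and Cx30 (Gjb6) form the gap junctions through which potassium and glutamine spread from one astrocyte to the next.

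The measurements come from strand-specific polyA RNA sequencing of 12 libraries of astrocyte-enriched cultures from the cortex of C57BL6/J pups of postnatal day 0 to 2. All cultures were grown in a medium with horse serum, replated at day 7 in vitro and kept for 5 days after addition of a lentivirus, so there was no untransduced group. The virus was either the control pCIG3, which carries GFP behind a CMV promoter, or pCIG3-ACREB, which carries ACREB, a dominant-negative form that blocks the cAMP-responsive transcription factor CREB. Next came a bath of 30 min with PBS or with the neuropeptide VIP (vasoactive intestinal peptide, 0.5 µM), which raises cAMP, and a recovery of 90 min. The 4 combinations (control virus with PBS, control virus with VIP, ACREB virus with PBS, ACREB virus with VIP) had 3 libraries each, numbered 1 to 3. The design asks which genes respond to VIP and whether ACREB changes that response.

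Totals were 16571398 to 20529238 counts per library. Astrocyte markers summed to 4338 to 6012 CPM (counts scaled to the same library total), and all 10 markers of that list were detected in every group, Slc7a10 being the lowest at a mean of 0.404 CPM. Markers of other cells were detected too: fibroblast and mural markers summed to 1887 to 3031 CPM, microglia markers to 1122 to 2863, oligodendrocyte lineage markers to 1153 to 1858, neuron markers to 313 to 515 and ependyma markers to 324 to 477. In some lists a single gene made up most of the sum. In the fibroblast and mural list this was Acta2, at a mean of 2146 CPM, with Col1a1 next at 56.6. In the neuron list it was Map2 at 302 CPM (Stmn2 next at 71.6), and in the ependyma list Foxj1 at 346 (Rsph1 next at 30.8). Those sums therefore do not rank how many cells of each type were present. Endothelium markers summed to 22.1 to 57.9 CPM, with Cldn5 at 0 in all groups. In such mixed cultures, fewer cells of a type and less RNA per cell cannot be told apart. The ACREB transgene itself was not analysed here. Control PBS library 2 stood apart from the other libraries (81.2 on a first principal component with 38.1% of the variance), followed by ACREB PBS library 2 (34.6), so where a difference turned or lost most of its size without one of them, that value is given beside it.

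The cultures expressed 8 of the 9 genes strongly, at levels per length of transcript that ranged widely. Levels between genes are compared as CPM per kb, either over the union of a gene's exons or over its longest transcript, because long untranslated ends weigh differently in each. On the union scale Glul was the highest, at a mean of 409 CPM per kb (310 to 556 over the 12 libraries), followed by Slc1a3 at 244 (213 to 283) and Kcnj10 at 214 (200 to 240.0). Aqp4 stood next at 146 CPM per kb (83.2 to 197). Slc38a3 at 52.5, Slc4a4 at 48.5 and Gja1 at 33.3 CPM per kb followed, and Slc1a2 was at 14.3 (8.26 to 19.9).

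Some neighbours in that order were not separate. The ranges of Slc38a3 and Slc4a4 overlapped, and Slc38a3 was the higher one in 5 of 12 libraries. Those of Slc1a3 and Kcnj10 overlapped as well, although Slc1a3 was higher in 12 of 12 libraries, as was Slc4a4 over Gja1. With the longest transcript the order changed in places. Glul (487) and Slc1a3 (471) then overlapped, with Glul higher in 5 of 12 libraries, and Gja1 (87.8) lay above Slc4a4 (66.1) in 11 of 12. Between the glutamate transporters, Slc1a3 exceeded Slc1a2 in every library by a median ratio of 16.4 (12.3 to 25.8), or 27.9 with the longest transcript. Gjb6 was barely detected, with 17 counts over the 12 libraries and 0 to 5 in each, against 75949 for the other connexin, Gja1.

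**Figure D1:**
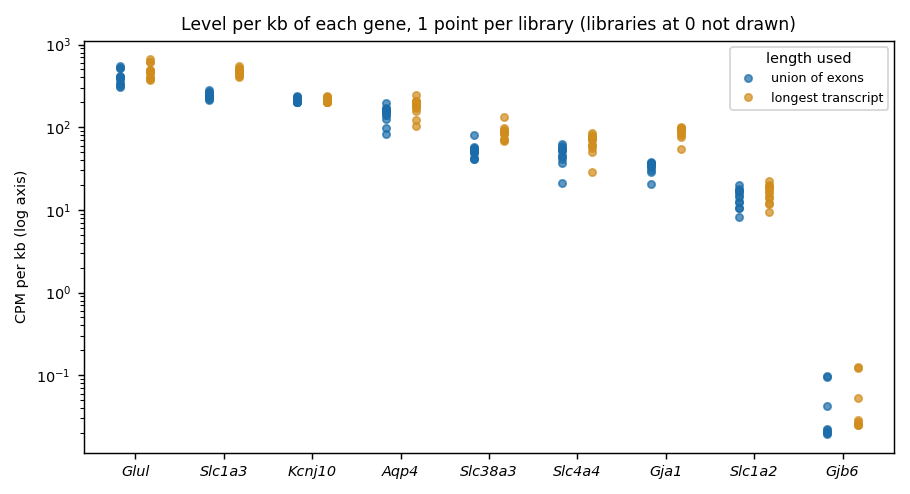
Level of each gene in CPM per kb (log axis), 1 point per library, for the union of exons (blue) and the longest transcript (orange). Glul, Slc1a3, Kcnj10 and Aqp4 lie highest, Slc1a2 lies at a mean of 14.3 on the union scale, and Gjb6 lies far below all others; libraries with no Gjb6 count are not drawn.

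The genes lie apart in the mouse genome (GRCm38, GENCODE M21), and all are protein coding. Slc1a3 (ENSMUSG00000005360) lies on chr15:8634124-8710764, Slc1a2 (ENSMUSG00000005089) on chr2:102658659-102790784, Glul (ENSMUSG00000026473) on chr1:153899944-153909723 and Slc38a3 (ENSMUSG00000010064) on chr9:107650634-107669530. Kcnj10 (ENSMUSG00000044708) lies on chr1:172341210-172374085 and Slc4a4 (ENSMUSG00000060961) on chr5:88886818-89239653. The connexin genes Gja1 (ENSMUSG00000050953) and Gjb6 (ENSMUSG00000040055) lie on chr10:56377330-56402513 and chr14:57123303-57133611. Exons of Glul overlap those of Teddm2 on the other strand over 116 bases, and Mir8114 on the same strand, and those of Slc1a2 overlap Gm13872 on the other strand over 189 bases, so counts of these genes are uncertain to that extent.

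Because ACREB acts on CREB, the promoters were searched for its binding site, the cAMP response element TGACGTCA, and for its half-site TGACG on either strand. The windows are the 250 bases before the RefSeq start (GRCm38.p6). Windows of 7 of the 9 genes, all but Aqp4 and Slc38a3, were searched, 8 windows in all because Slc4a4 had more than 1. The only window of Slc1a2 (chr2:102706188-102706437) lies inside the gene. The windows of Slc4a4 (chr5:88887010-88887259 and chr5:89027716-89027965) also lie inside that gene. For Slc1a2 and Slc4a4, the sequence before the first annotated start was therefore not searched. The full element was in 0 of the 7 genes (1.55% of all 32851 windows of that length hold it), and the half-site was in 2 of the 7, Slc1a3 and Gja1 (17.8% of all windows). The counts are of genes and the shares are of windows. A full element contains the half-site on both strands. Shown here are those 2 promoters, with half-sites in capitals, and, for contrast, those of Glul and Kcnj10, which hold none. A match is a string of letters and not a shown binding site.
Slc1a3, chr15:8710808-8711057, minus strand: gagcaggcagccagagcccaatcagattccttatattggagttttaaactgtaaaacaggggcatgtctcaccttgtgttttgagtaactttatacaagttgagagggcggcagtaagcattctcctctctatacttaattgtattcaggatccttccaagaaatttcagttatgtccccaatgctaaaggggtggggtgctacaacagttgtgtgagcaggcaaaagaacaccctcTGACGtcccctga
Gja1, chr10:56377050-56377299, plus strand: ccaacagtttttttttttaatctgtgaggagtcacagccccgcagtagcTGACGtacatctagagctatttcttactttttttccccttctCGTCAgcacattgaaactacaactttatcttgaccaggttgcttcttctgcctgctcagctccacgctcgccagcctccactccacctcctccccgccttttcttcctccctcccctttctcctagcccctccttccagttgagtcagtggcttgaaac
Glul, chr1:153899679-153899928, plus strand: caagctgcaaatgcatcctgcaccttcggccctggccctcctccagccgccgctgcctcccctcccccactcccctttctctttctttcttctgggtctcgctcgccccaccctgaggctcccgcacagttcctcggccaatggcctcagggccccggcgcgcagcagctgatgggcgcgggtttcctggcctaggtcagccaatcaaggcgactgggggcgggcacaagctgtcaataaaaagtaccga
Kcnj10, chr1:172340960-172341209, plus strand: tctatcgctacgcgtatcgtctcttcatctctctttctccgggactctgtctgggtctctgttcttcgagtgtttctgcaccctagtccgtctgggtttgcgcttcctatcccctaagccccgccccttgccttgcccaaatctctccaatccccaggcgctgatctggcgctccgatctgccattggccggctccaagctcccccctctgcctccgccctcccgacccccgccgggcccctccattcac
Counted from the start, the half-site of Slc1a3 begins at position -13 and those of Gja1 begin at positions -201 and -159.

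Differences between groups are given as log2 fold changes with their standard error (SE) from edgeR's quasi-likelihood test on all 12 libraries, two-sided, with Benjamini-Hochberg adjustment over the 16761 genes tested and a threshold of 0.05. Values in single libraries are in CPM and follow the library numbers 1, 2 and 3. The numbers pair libraries across groups, so a count of pairs means same-numbered libraries.

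The glutamate transporter Slc1a3 stood at 2079.9, 1815 and 2066 CPM with control virus and PBS, and at 2413, 2255 and 2303 with control virus and VIP. With ACREB virus it was 2021, 1875 and 1972 CPM with PBS, and 2102, 2039 and 2102 with VIP. The control VIP libraries were thus the 3 highest of the 12, and in both viruses every VIP library lay above every PBS library. The difference with VIP was 0.23 (SE 0.097, unadjusted p = 0.038) in control virus, higher in 3 of 3 pairs, and did not pass after adjustment (adjusted p = 0.728, edgeR). With the replicate number as a block it was 0.23 (SE 0.066, unadjusted p = 0.0055, edgeR) and again did not pass (adjusted p = 0.147, edgeR). In ACREB virus the difference without the block was 0.09 (SE 0.097, adjusted p = 1.00, edgeR), again higher in 3 of 3 pairs. With VIP, every ACREB library lay below every control library, a difference of -0.16 (SE 0.097, adjusted p = 1.00, edgeR). The last comparison and the first share the control VIP libraries.

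Slc1a3 was the only 1 of the 8 tested genes whose groups did not overlap in any of the 4 comparisons between single groups. That count of 1 of 8 stands against 9.8% of all genes tested for VIP in control virus, 6.72% for VIP in ACREB virus and 14% for ACREB with VIP. For ACREB with PBS it was 0 of 8, against 8.78%. Averaged over the other factor, with 6 libraries on each side, 0 of 8 did not overlap for VIP (1.22% of all genes) and 0 of 8 for ACREB (1.95%). The VIP difference of Slc1a3 in control virus shrank from 0.23 to 0.06 once each library's trend with GC content and transcript length was removed, and was 0.16 without control PBS library 2. In that library the trend for Slc1a3 (-0.44) exceeded its log2 departure from the median library (-0.19) and left 0.25.

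Slc1a2, the transporter that in the adult forebrain carries most glutamate uptake, stood at 216, 108 and 162 CPM with control virus and PBS, and at 222, 226 and 139 with control virus and VIP. In ACREB virus its values were 235, 137 and 188 CPM with PBS, and 262, 199 and 165 with VIP. The groups overlapped, and the libraries within a group differed about as much as any groups did (a coefficient of variation of 24.6% over the 12 libraries, against 8.18% for Slc1a3). Its differences were 0.27 (SE 0.28) for VIP in control virus, 0.16 (SE 0.28) for VIP in ACREB virus. ACREB gave 0.21 (SE 0.28) with PBS and 0.09 (SE 0.28) with VIP. Without control PBS library 2 the VIP difference in control virus was 0.05 and the ACREB difference with PBS was -0.01, and with GC and length offsets they were -0.03 and -0.04. The VIP difference in ACREB virus was -0.02 without ACREB PBS library 2.

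Glutamine synthetase (Glul) stood at 1269, 1846 and 1057 CPM with control virus and PBS, and at 1127, 1395 and 1029.8 with control virus and VIP. ACREB virus gave 1363, 1723 and 1115 CPM with PBS, and 1340.1, 1742 and 1295 with VIP. In every group library 2 was the highest, and the groups overlapped. Within pairs, control virus with VIP was lower than with PBS in 3 of 3, and ACREB with VIP was higher than control virus with VIP in 3 of 3, by 0.25, 0.32 and 0.33. Both of these comparisons use the control VIP libraries. With PBS the ACREB pairs went in both directions (0.10, -0.10 and 0.08). The fitted ACREB difference with PBS was 0.01 (SE 0.22), and 0.27 without control PBS library 2. Over all fits that leave out 1 library it ran from -0.17 to 0.27.

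The difference of Glul between ACREB and control virus with VIP was 0.30 (SE 0.22, 95% interval -0.18 to 0.79, adjusted p = 1.00, edgeR). With the replicate number as a block it was 0.30 with an unadjusted p of 0.00468 and an adjusted p of 0.175 (edgeR). With the replicate block together with GC and length offsets it was 0.27 and passed (adjusted p = 0.027, edgeR). In that fit Glul was 1 of 8 genes called, against 3.54% of all genes tested. For VIP in control virus the difference was -0.23 (SE 0.22, adjusted p = 0.782, edgeR) and was 0.02 without control PBS library 2. The interaction, that is the VIP difference in ACREB virus less that in control virus, was 0.29 (SE 0.31, adjusted p = 1.00, edgeR), and 0.03 without control PBS library 2. Microglia markers summed to 1122 to 2334 CPM in the control VIP libraries and to 1476 to 2863 in the ACREB VIP libraries, and their part in the Glul difference was not tested.

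The glutamine carrier Slc38a3 stood at 304, 423 and 258 CPM with control virus and PBS, and at 275, 286 and 227 with control virus and VIP. The ACREB libraries held 287, 292 and 220.4 CPM with PBS, and 266, 270.3 and 215 with VIP. Control PBS library 2 was the highest of the 12 libraries, library 3 was the lowest in each group, and the groups overlapped. Slc38a3 was lower with VIP in 3 of 3 pairs in both viruses, and lower with ACREB in 3 of 3 pairs with both treatments. These 4 comparisons share libraries, and the share of all genes with such pair counts was not counted. The differences were -0.32 (SE 0.18, adjusted p = 0.782, edgeR) for VIP in control virus, -0.09 (SE 0.18) for VIP in ACREB virus. Under ACREB they were -0.30 (SE 0.18) in PBS and -0.07 (SE 0.18) in VIP, and none of the 4 passed. Without control PBS library 2 the VIP difference in control virus was -0.10 and the ACREB difference in PBS was -0.07, and the VIP difference in ACREB virus was -0.02 without ACREB PBS library 2. Averaged over treatments, the ACREB difference was -0.19 (SE 0.13, adjusted p = 0.762, edgeR) and -0.07 without control PBS library 2. With the replicate block and offsets the adjusted p of Slc38a3 was 0.055 (edgeR), in a fit that called 10% of all genes. In the same fit Glul (0.059) and Slc1a3 (0.067) lay about as close to the threshold.

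Kcnj10, the channel that carries most of the resting potassium conductance of astrocytes, stood at 1298, 1088 and 1256 CPM with control virus and PBS, and at 1103, 1083 and 1155 with control virus and VIP. Under ACREB virus the values were 1266, 1084 and 1158 CPM with PBS, and 1131, 1103 and 1156 with VIP. This was the steadiest gene of the 9, with a coefficient of variation of 6.57% over the 12 libraries, and all groups overlapped. Its differences were -0.12 (SE 0.10, 95% interval -0.35 to 0.10) for VIP in control virus and -0.05 (SE 0.10, interval -0.27 to 0.18) for VIP in ACREB virus. For ACREB they were -0.05 (SE 0.10) with PBS (-0.0035 without ACREB PBS library 2) and 0.02 (SE 0.10, interval -0.20 to 0.25) with VIP.

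The bicarbonate cotransporter Slc4a4 stood at 577, 227 and 490.1 CPM with control virus and PBS, and at 590.2, 677 and 442 with control virus and VIP. ACREB libraries had 607, 401 and 563 CPM with PBS, and 640.5, 597 and 479 with VIP. Control PBS library 2 was the lowest of the 12 libraries and lay far below the rest, and the groups overlapped. VIP in control virus gave the largest difference of any of the 8 genes in any comparison, 0.40 (SE 0.29, 95% interval -0.23 to 1.04, adjusted p = 0.782, edgeR). It was 0.09 without control PBS library 2, and library 2 alone gave 1.57 where pairs 1 and 3 gave 0.03 and -0.15. The other differences were 0.13 (SE 0.29) for VIP in ACREB virus and, under ACREB, 0.28 (SE 0.29) in PBS and 0.01 (SE 0.29) in VIP. In PBS, pair 2 gave 0.81 where pairs 1 and 3 gave 0.07 and 0.20, and the ACREB difference was -0.02 without control PBS library 2. The VIP difference in ACREB virus was -0.03 without ACREB PBS library 2.

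The water channel Aqp4 (ENSMUSG00000024411, chr18:15389496-15410982) stood at 1059.9, 519 and 969 CPM with control virus and PBS, and at 1040.5, 1228 and 872 with control virus and VIP. In the ACREB groups it was 951, 616 and 882 CPM with PBS, and 1036, 957 and 795 with VIP. Both PBS libraries numbered 2 lay below all other libraries, and the groups overlapped. Its differences were 0.30 (SE 0.25, 95% interval -0.24 to 0.84) for VIP in control virus and 0.19 (SE 0.25) for VIP in ACREB virus. The first was 0.04 without control PBS library 2 and 0.02 with the offsets for GC and length. The second was 0.02 without ACREB PBS library 2. ACREB gave -0.06 (SE 0.25) with PBS and -0.17 (SE 0.25) with VIP. With PBS the value was -0.31 without control PBS library 2 and 0.11 without ACREB PBS library 2.

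The gap junction gene Gja1 stood at 364, 212 and 382 CPM with control virus and PBS, and at 346, 312 and 383 with control virus and VIP. ACREB cultures gave 357, 293 and 368 CPM with PBS, and 361, 336 and 387 with VIP. Library 2 was the lowest in every group, and the groups overlapped. Differences were 0.12 (SE 0.19) and 0.09 (SE 0.19) for VIP in control and ACREB virus, and 0.09 (SE 0.19) and 0.06 (SE 0.19) for ACREB with PBS and VIP. The VIP difference in control virus turned to -0.11 with the offsets for GC and length and likewise without control PBS library 2. The ACREB difference with PBS turned to -0.13 without that library. The VIP difference in ACREB virus was -0.0044 without ACREB PBS library 2. For the second connexin, Gjb6, the counts were 1, 1 and 1 with control virus and PBS, 5, 0 and 5 with control virus and VIP, 1, 1 and 0 with ACREB virus and PBS, and 2, 0 and 0 with ACREB virus and VIP. At this depth no difference in Gjb6 could be detected.

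**Figure D2:**
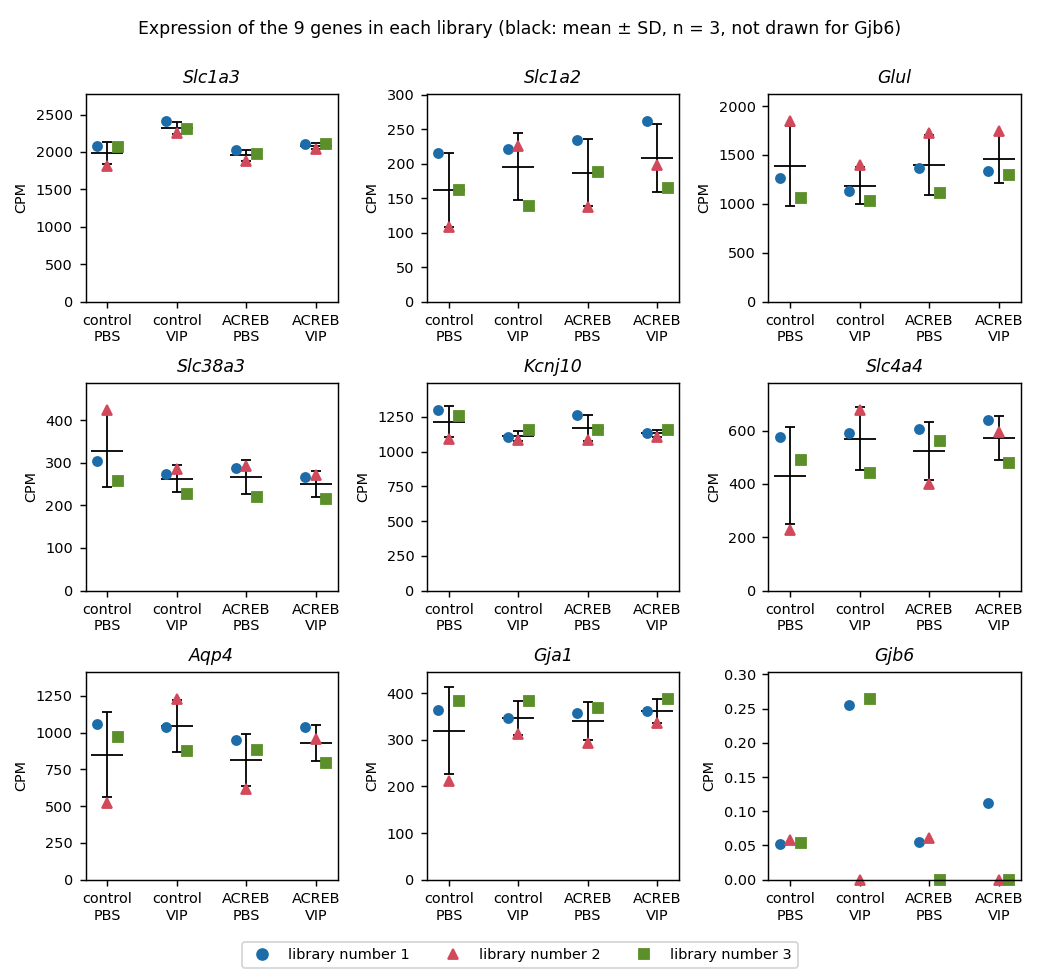
CPM of each of the 9 genes in every library by group (control or ACREB virus with PBS or VIP, 3 libraries each); colour and shape give the library number, and black bars the mean ± SD. Slc1a3 lies highest in the control VIP group (2255 to 2413), Glul is highest in library 2 of each group, and Slc4a4, Aqp4, Slc1a2 and Gja1 are lowest in library 2 of the control PBS group.

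Over the whole set, 0 of the 8 tested genes passed the threshold in any of the 7 comparisons with edgeR, and 0 of 8 passed with DESeq2 in any of them. At an unadjusted p under 0.05, edgeR counted 1 of 8 for VIP in control virus and 1 of 8 for VIP averaged over the viruses, both times Slc1a3, and 0 of 8 in the other 5 comparisons. Of all genes tested, 6.42% and 6.67% lay under that p in these comparisons, so 1 of 8 is near the background in that fit. With the replicate block, more lay under it in edgeR: Slc1a3 (0.0055), Slc38a3 (0.010) and Glul (0.034) for VIP in control virus. For ACREB these were Slc38a3 in PBS (0.014), and Glul (0.0047) and Slc1a3 (0.035) in VIP. Averaged, they were Slc1a3 (0.00595) and Slc38a3 (0.017) for VIP, and Glul (0.020) and Slc38a3 (0.026) for ACREB. Glul was also under it for the interaction (0.043). The share of all genes under it with the block was not counted. Among all 16761 genes, 82 passed for VIP in control virus (0.489%), 2 for VIP in ACREB virus (0.0119%), 6 for ACREB in PBS (0.0358%) and 9 for ACREB in VIP (0.0537%). For the averaged contrasts 122 genes passed for VIP (0.728%) and 113 for ACREB (0.674%). For the interaction 0 genes passed (0%), with 201 at an unadjusted p under 0.05, and 0 with DESeq2 or with the replicate block. With so few genes called at all, a count of 0 of 8 is near the background in each comparison.

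The sizes of the differences were small as well. For VIP in control virus they ran from -0.32 (Slc38a3) to 0.40 (Slc4a4) with a median of 0.17, beside a median of -0.02 over all genes, and 0 of 8 exceeded 0.5 in either direction where 10.8% of all genes did. That median turned to -0.07 with GC and length offsets (-0.03 over all genes) and was 0.03 without control PBS library 2. In ACREB virus the VIP differences ran from -0.09 to 0.19. ACREB gave -0.30 to 0.28 with PBS and -0.17 to 0.30 with VIP, with medians of -0.01 and 0.01. The intervals still allow changes of over 1.5-fold in several genes, since the 95% interval of Slc4a4 for VIP in control virus reached 1.04 and that of Slc1a2 reached 0.89.

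**Figure D3:**
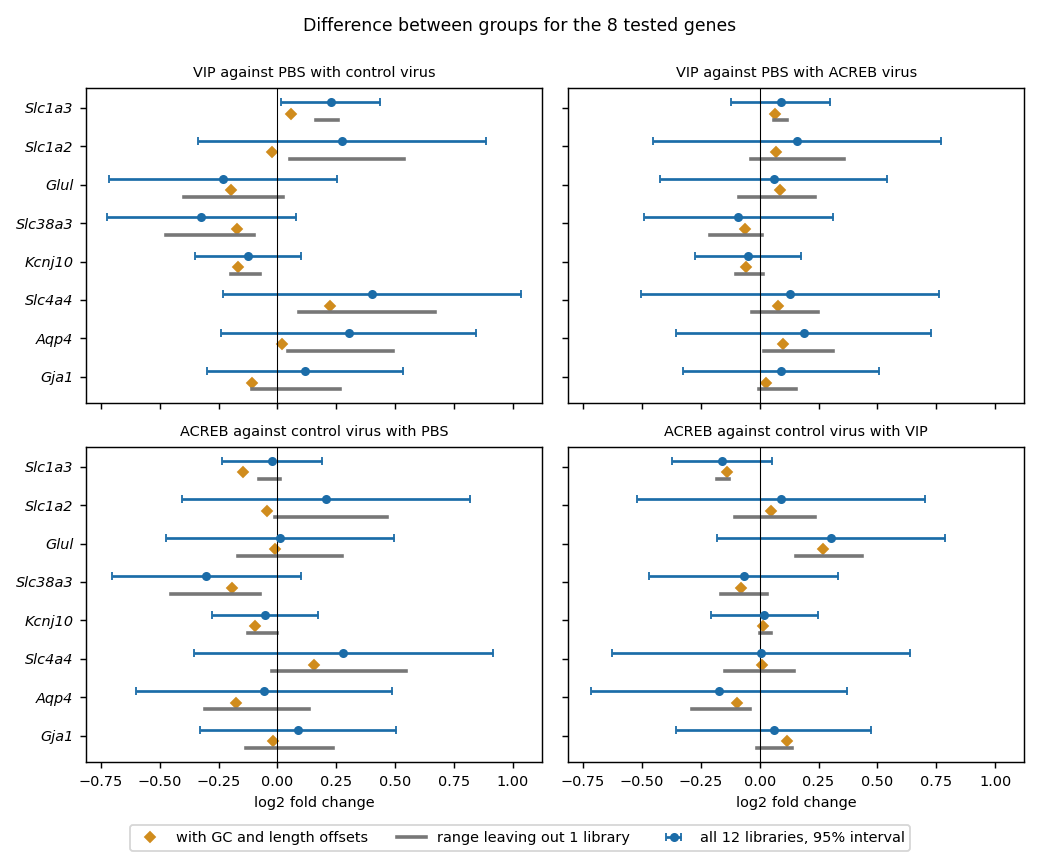
Log2 fold change of the 8 tested genes in the 4 comparisons between single groups: all 12 libraries with the 95% interval (blue), with GC and length offsets (orange diamonds), and the range over fits that leave out 1 library (grey bars). The only interval that lies off 0 is that of Slc1a3 for VIP in control virus (0.01 to 0.44), whose value with offsets is 0.06.

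Several of the genes departed strongly from the other libraries in control PBS library 2, low-GC genes downward for the most part. In control PBS library 2 the departure from the median library (log2) was -1.33 for Slc4a4, -0.88 for Aqp4, -0.83 for Slc1a2 and -0.76 for Gja1, while it was 0.64 for Slc38a3 and 0.49 for Glul. Slc1a3 and Kcnj10 departed by -0.19 and -0.07. The GC content of the longest transcript was 41.4% for Aqp4, 42.2% for Gja1, 45.3% for Slc1a2, 45.7% for Slc1a3 and 45.9% for Slc4a4, against 49.2% for Glul, 49.6% for Kcnj10 and 55.0% for Slc38a3. The trend of that library with GC content and length, fitted over all genes tested, took the values -0.86 for Aqp4, -0.69 for Gja1, -0.94 for Slc1a2, -0.70 for Slc4a4 and 0.33 for Slc38a3. The trend left part of the departures. For Glul it was 0.05, leaving most of the 0.49, Slc4a4 kept -0.63 of its -1.33, and for Slc1a3 the trend of -0.44 exceeded the departure of -0.19. The trend explained 43.4% of the variance of that library's departures and 21.2% of those of ACREB PBS library 2.

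**Figure D4:**
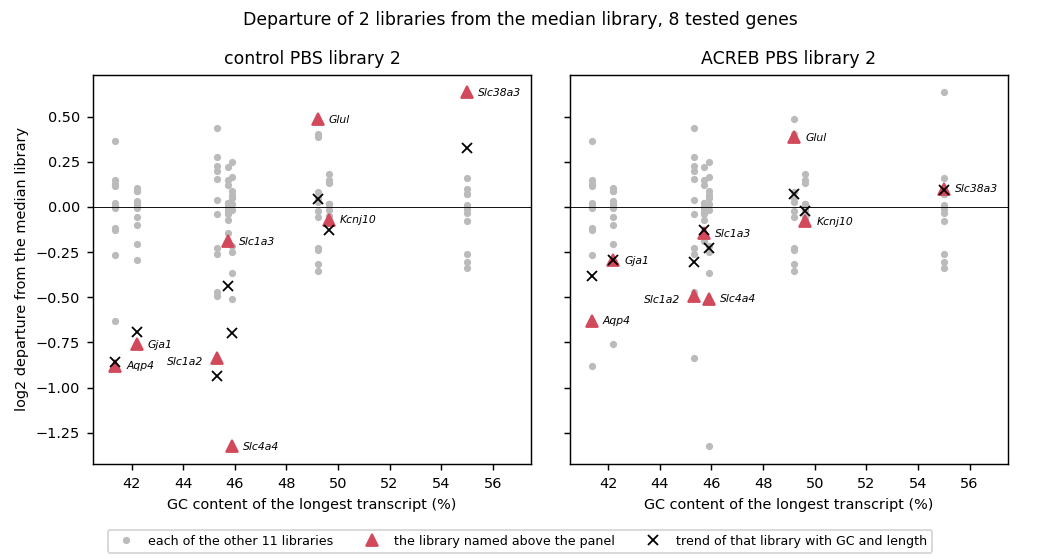
Departure of control PBS library 2 (left) and ACREB PBS library 2 (right) from the median library (log2, red triangles) for the 8 tested genes against the GC content of the longest transcript (%); grey points are the other 11 libraries and crosses the trend of the named library with GC and length. In the left panel the low-GC genes Aqp4 and Gja1 lie at -0.88 and -0.76 and the high-GC gene Slc38a3 at 0.64; Glul lies above its cross in both panels.

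The way many of the genes varied together changed without the PBS libraries numbered 2: of 28 pairs among the 8 tested genes, 18 had a correlation of the other sign over the 10 libraries left. As a description, over libraries that share replicate numbers and differ in their GC trend, the log2 CPM of Slc1a2 and Slc4a4 correlated at 0.919, and at 0.933 over those 10 libraries. Aqp4 and Slc4a4 correlated at 0.919 and 0.761. Gja1 and Slc4a4 correlated at 0.728 over 12 libraries and at -0.821 over 10, and Glul and Slc4a4 at -0.411 and 0.595. The 5 genes outside the lists with the profile most like the mean standardised profile of the 8 tested genes, of 12459 ranked, were Prkg1 (r = 0.976 over 12 libraries, 0.946 over 10), Agtpbp1 (0.971 and 0.943), Ankib1 (0.970 and 0.966), Nus1 (0.969 and 0.968) and Fam120c (0.969 and 0.942). Each gene of the set is itself part of that mean profile, which raises its correlation with it. Of the set, Aqp4 followed the mean profile most closely over 12 libraries (0.934) and Glul least (-0.374). Over 10 libraries the order was another, with Slc38a3 closest (0.951, from -0.281) and Gja1 least (-0.609, from 0.631), Aqp4 at 0.817 and Glul at 0.452.

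Genes with related tasks were examined as 5 lists. For glutamate and glutamine handling 14 of 16 genes were tested, for potassium channels and the sodium pump 14 of 14, for water and its dystroglycan anchor 13 of 13, for gap junctions and hemichannels 7 of 9, and for bicarbonate, protons and carbonic anhydrases 12 of 13. In edgeR without the replicate block or offsets, 2 genes of the lists passed in any comparison, Kcnk10 and Slc7a11, both higher with VIP. In that fit 0 genes of the water, gap junction and bicarbonate lists passed. At an unadjusted p under 0.05 the water list had at most 1 of 13 (VIP in control virus, 6.42% of all genes), and the gap junction and bicarbonate lists had 3 of 7 and 2 of 12 for ACREB averaged over treatments, where 9.47% of all genes did. DESeq2 called 0, 0 and 1 of the genes of these 3 lists, the last being Car2 for ACREB averaged over treatments, against 2.71% of all genes in that comparison.

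Kcnk10, which encodes the potassium leak channel TREK-2, stood at 87.9, 74.3 and 79.8 CPM with control virus and PBS and at 176, 155 and 132 with control virus and VIP. With ACREB virus it was 81.2, 84.2 and 74.0 CPM with PBS and 126, 108 and 93.7 with VIP. Every VIP library lay above every PBS library, where 1.22% of all genes did not overlap in either direction. The VIP libraries with ACREB lay below those with control virus, a comparison in which 14% of all genes did not overlap. The rise with VIP in control virus was 0.94 (SE 0.14, adjusted p = 0.012, edgeR), the only 1 of 14 potassium genes called, against 0.489% of all genes. In ACREB virus it was 0.45 (SE 0.14, adjusted p = 1.00, edgeR), and the difference between the viruses, the interaction, was -0.48 (SE 0.20, unadjusted p = 0.030, adjusted p = 1.00, edgeR). With VIP, ACREB against control virus gave -0.50 (SE 0.14, adjusted p = 0.400, edgeR) for Kcnk10, which passed as lower with the replicate block and offsets. Averaged over viruses Kcnk10 rose by 0.69 (SE 0.098, adjusted p = 0.0059, edgeR). With GC and length offsets the rise was 0.70 in control virus (adjusted p = 0.044, edgeR) and 0.54 averaged (adjusted p = 0.018, edgeR). The interaction was then -0.31 (unadjusted p = 0.148, edgeR). The call in control virus was lost without control VIP library 1 (0.83, adjusted p = 0.072) and with only the 6 libraries compared (0.96, adjusted p = 0.190), and without the 4 libraries numbered 2 the adjusted p was 0.133 in control virus (0.88) and 0.073 averaged (0.69). With those libraries left out and the replicate block, Kcnk10 passed in both (0.87, adjusted p = 0.0011, and 0.68, adjusted p = 0.00042, edgeR).

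Slc7a11 encodes xCT, the light chain of an exchanger that imports cystine and releases glutamate. It stood at 4.62, 3.39 and 6.04 CPM with control virus and PBS and at 19.0, 19.9 and 9.02 with control virus and VIP. With ACREB virus it was 2.94, 3.69 and 5.73 CPM with PBS and 13.9, 7.79 and 7.70 with VIP. Every VIP library lay above every PBS library here too (1.22% of all genes did not overlap in either direction), at levels far below the uptake transporters. Averaged over viruses it rose by 1.51 (SE 0.26, adjusted p = 0.020, edgeR), the only 1 of 14 glutamate genes called, against 0.728% of all genes. In control virus the difference was 1.77 (SE 0.37, adjusted p = 0.072, edgeR), which passed with the replicate block (1.76, adjusted p = 0.039), a fit in which 1.63% of all genes were called. With GC and length offsets the rise was 1.32 in control virus (adjusted p = 0.070, edgeR) and 1.19 averaged (adjusted p = 0.014, edgeR). The averaged call was lost, at adjusted p of 0.057 to 0.074 and differences of 1.34 to 1.50, when 1 of 6 libraries was left out: in control virus PBS 1, VIP 1 and VIP 2, and in ACREB virus PBS 1, PBS 2 and VIP 1. It was also lost without both PBS libraries numbered 2 (1.37, adjusted p = 0.064) or without all 4 libraries numbered 2 (1.35, adjusted p = 0.192), but passed without those 4 with the replicate block (1.31, adjusted p = 0.036, edgeR).

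**Figure D5:**
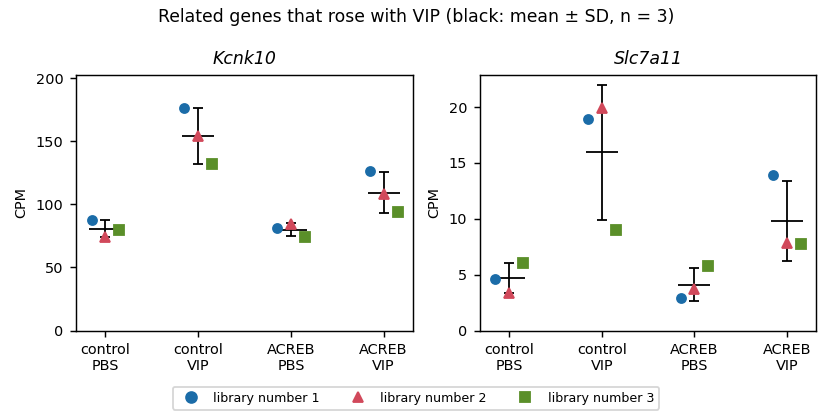
CPM of Kcnk10 and Slc7a11 in every library by group, with colour and shape for the library number and black bars for the mean ± SD of 3 libraries. In both genes all VIP libraries lie above all PBS libraries, with control VIP means of 154 CPM (Kcnk10) and 16.0 CPM (Slc7a11).

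With the replicate block, which calls 2.25% of all genes for VIP and 3.45% for ACREB in the averaged contrasts, a few more related genes passed in edgeR. These were named after their values were seen. The glutamine carriers Slc38a1 and Slc38a2 rose with VIP, by 0.30 (SE 0.062, adjusted p = 0.031) and 0.35 (SE 0.079, adjusted p = 0.044). With ACREB the neuronal-type glutamate transporter Slc1a1 fell by 0.38 (SE 0.078, adjusted p = 0.027), the pannexins Panx1 and Panx2 fell by 0.42 (SE 0.10, adjusted p = 0.047) and 0.67 (SE 0.13, adjusted p = 0.020), and the carbonic anhydrase gene Car2 rose by 0.30 (SE 0.064, adjusted p = 0.031). Without the block the adjusted p of these 6 genes in edgeR was 0.138 (Car2) or more, or 0.114 (Car2) or more with GC and length offsets, while DESeq2 called Car2 (adjusted p = 0.0059).

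Other genes that the naming rule picks did not pass in edgeR without the block or offsets. Aldh18a1, which makes proline precursors from glutamate, stood at 48.9 ± 9.72 and 49.8 ± 5.33 CPM (SD, n = 3) in the control virus groups with PBS and VIP and at 38.5 ± 1.43 and 37.9 ± 3.43 with ACREB (averaged difference -0.37, SE 0.10, adjusted p = 0.159, edgeR). It passed as lower in DESeq2 (adjusted p = 0.030) and, in edgeR, with GC and length offsets (-0.33, adjusted p = 0.023), a fit that called 2.14% of all genes. With the block and offsets it passed averaged (adjusted p = 0.0056, edgeR, 10% of all genes called) and for ACREB with VIP (-0.40, adjusted p = 0.024, edgeR). Gjb2, another connexin, was near its detection limit, at 0.410 ± 0.207 CPM with control virus and PBS and 1.03 ± 0.489 with VIP (averaged VIP difference 1.20, SE 0.36, adjusted p = 0.281, edgeR). For Trpv4, a swelling-sensitive cation channel, the averaged ACREB difference was -0.42 (SE 0.29). Car8, a carbonic anhydrase-related gene, differed by 0.29 (SE 0.11) with VIP.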

How the data were processed

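The deposited table holds raw counts per Ensembl gene and library, as the authors left them, neither normalized nor pooled. Per the submitters' processing notes, reads passed through Trimmomatic 0.39, STAR 2.7.1a and HTSeq 0.11.2 on GRCm38 (mm10), with R 3.6.1 and edgeR also listed. The strand setting of the counter is not given in the sources used here, nor is the annotation release. Positions, lengths and GC content came from GENCODE M21 for 55480 of the 55573 identifiers (93 had none), and 0 rows named no gene.

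Counts were tested with edgeR 4.0.16 in R 4.3.3 (limma 3.58.1): filterByExpr, TMM scaling of the total counts, 1 mean per group over all 12 libraries, glmQLFit and glmQLFTest, two-sided, Benjamini-Hochberg adjustment over the 16761 genes tested. The SE is the absolute log2 fold change divided by the square root of F. CPM are counts scaled by the TMM-adjusted total, and correlations use log2(CPM + 2). GC and length offsets came from a spline (5 degrees of freedom) per library. Alternatives were DESeq2 1.42.0, other scalings, no filter, the replicate block, the offsets, and fits without single libraries. The code was tested on simulated data with known changes.

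Same-numbered libraries deviated together from their group means (18 of 18 pairs at 0.132 to 0.679; 12 of 12 libraries correlated best with their own number), so the numbers pair the libraries. What the replicates are (cultures or animals) is not labelled, and a p-value here therefore speaks only to the spread among these samples, which could be technical.

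The genes, the related lists and the alternatives were chosen with earlier results of these data known. Named are the 9 genes, every related gene past the threshold, otherwise the related gene with the smallest p per list in each averaged contrast, and the 5 genes with the most similar profile (mean CPM of at least 2, no predicted or RIKEN symbols). 1 gene that this rule names is not reported here.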

Additional observations from a re-analysis of the deposited data

Results flagged for a closer look

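Kcnj10 was picked out because every pair moved one way with PBS and the other way with VIP: it was lower with ACREB than with control virus in 3 of 3 pairs with PBS and higher in 3 of 3 pairs with VIP. The mean pair differences lay 0.074 apart on the log2 scale. Some pairs were near ties: pair 2 gave -0.0059 with PBS and pair 3 gave 0.00082 with VIP. Scaled by total counts alone, ACREB PBS library 2 (1076 CPM) lay above control PBS library 2 (1055 CPM), so the pattern depends on the scaling. The share of all genes that meet this rule was not counted. The test of that difference, the interaction in edgeR's quasi-likelihood fit, gave 0.07 (SE 0.15, unadjusted p = 0.619, adjusted p = 1.00) for Kcnj10, and called 0 of 16761 genes. Groups of 3 libraries are too small for a formal test of a single outlying library within a group. Over fits that leave out 1 library, the interaction of Kcnj10 ran from 0.02 to 0.15.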

How the results depend on the processing

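The number of the 8 tested genes called was 0 in all 7 comparisons under every alternative run, leave-one-out fits included (0 to 0), except that it was 1 for ACREB against control virus with VIP under the replicate block with GC and length offsets, where Glul passed (0.27, adjusted p = 0.027, edgeR). The replicate block alone changed no call of these 8 genes. Of 1320 fits of a single gene's fold change under an alternative, the sign differed from that with all libraries in 108, none of them a called value. Leaving out all 4 libraries numbered 2, with and without the block, was chosen after seeing the data. The fit on only the libraries compared was not run for the interaction or the averaged contrasts, which use all 12. Some intervals reached well past the differences seen, up to 1.04 for Slc4a4 with VIP in control virus, so a difference not called is not shown to be absent.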
